A study of Mus musculus with 8 samples.

Results

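The TNF receptor and ligand superfamily was examined on 8 Affymetrix mouse arrays of 3 cell lines. Members were the probe sets whose RefSeq transcript carries a symbol beginning with Tnfrsf or Tnfsf, or one of Eda2r, Edar, Eda, Fas, Fasl, Cd40, Cd27, Ltbr, Ngfr, Relt, Tnf, Lta and Ltb. This rule found 50 probe sets among the 22523 that are not Affymetrix controls. Probe sets with identical values were counted once, which left 40 distinct members among 18172 distinct value profiles. The 40 members carry 40 gene symbols, because Cd40 has 2 profiles, while Tnfsf13 and Tnfsfm13 share 1. Tnfsfm13 is the read-through transcript of the neighbouring Tnfsf12 and Tnfsf13 genes, so this profile does not tell the pair apart. Of the members, 16 encode receptors without a death domain, 7 encode death domain receptors, 3 encode decoy receptors and 14 encode ligands. No probe set was matched to Relt, Tnfrsf13b, Tnfrsf26, Tnfsf13os, Tnfsf15 or Tnfsf18.

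All lines are mouse fibroblasts without endogenous p53, cultured for 48 h in DMEM with 10% dialyzed serum, 5 µg/ml puromycin and 65 µM ZnCl2. Ind-8 cells carry a p53 cDNA that zinc switches on through a metallothionein promoter, and divide with asymmetric self-renewal under these conditions (3 arrays). Con-3 cells carry the vector without that cDNA and stay in symmetric self-renewal (3 arrays). The labels call Con-3 the congenic parent of Ind-8, whereas the study's methods describe a vector control line. tI-3 cells derive from Ind-8, keep the zinc-driven p53 and in addition make IMPDH II from a constitutive cDNA, which holds them in symmetric self-renewal (2 arrays). G418 was added to the tI-3 medium alone, and the sources differ on its dose. Each line is 1 clone. Ind-8 and Con-3 differ in p53 and self-renewal state, Ind-8 and tI-3 in IMPDH II, G418 and that state, and tI-3 and Con-3 in p53, IMPDH II and G418. Within each comparison these and the clone cannot be told apart.

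Members of this superfamily are receptors and mostly trimeric type II ligands. Receptors with a cytoplasmic death domain, such as Fas and the TRAIL receptor Tnfrsf10b, can assemble caspase-activating complexes through the adaptors Fadd and Tradd. Receptors without one recruit TRAF proteins and feed mainly into NF-kB and MAP kinase signalling, and decoy receptors bind ligand without passing the signal on. Fas, Tnfrsf10b and Eda2r, the receptor of ectodysplasin A2, are known p53 target genes.

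The labels were checked first. Trp53 averaged 5.79 ± 0.095 (SD, n = 3) in Ind-8, 5.25 ± 0.041 (n = 3) in Con-3 and 5.64 ± 0.069 (n = 2) in tI-3, on the log2 scale of the deposited values, and rose against Con-3 in both p53-inducible lines (adjusted p = 0.00192 for Ind-8 and 0.0144 for tI-3). The call in tI-3 was lost without tI-3 replicate 2 (adjusted p = 0.109), over a range of 0.0123 to 0.109 in all limma settings. The p53 target Cdkn1a stood at 9.66 ± 0.066, 5.86 ± 0.16 and 7.44 ± 0.15 in the same order, and Mdm2 at 10.90 ± 0.26, 8.90 ± 0.12 and 9.62 ± 0.078, so that both were highest in Ind-8 and intermediate in tI-3. Impdh2 averaged 12.36 ± 0.022 in tI-3, 12.19 ± 0.033 in Ind-8 and 12.53 ± 0.022 in Con-3. Both tI-3 arrays lay above the Ind-8 arrays and below the Con-3 arrays, and neither difference was called (adjusted p = 0.163 and 0.182). The transgene that the tI-3 label names was thus not seen as a called rise. Between Ind-8 and Con-3 the Impdh2 difference of −0.34 was called (adjusted p = 0.0108), and every limma setting kept it. Whether the probes match the cDNA is not given in the sources used here. Of the 12 fibroblast markers, 11 lay in every line above 5.12, the higher of the background levels used, while Thy1 averaged 3.88, 4.19 and 4.56. Of these markers 8 were called higher and 1 lower in Ind-8 than in tI-3, and 2 and 1 in Ind-8 than in Con-3. All distinct profiles gave 15.9% higher and 14.8% lower against tI-3, and 10.9% and 10.3% against Con-3. In tI-3 against Con-3, 3 of the markers rose and 6 fell, beside 10.1% and 15.5% of all profiles. The collagen gene Col3a1 fell from 9.07 ± 0.42 to 6.38 ± 0.18 (adjusted p = 0.00062).

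1 array stood apart outside the family. On Con-3 replicate 3 the 18S ribosomal RNA control probe sets averaged 10.63, against 5.58 to 6.46 on the other 7 arrays. The 18 hybridization-control probe sets averaged 10.44 there and 10.24 and 10.46 on the tI-3 arrays, against 9.88 to 10.00 on the other 5. Median log2 values ran from 6.12 to 6.19 over all arrays. The 3' minus 5' difference of the actin control probe sets, a sign of RNA quality, also differed between lines. It was 0.14 to 0.19 on the Ind-8 arrays, 0.11 to 0.14 on the Con-3 arrays and 0.06 and 0.07 on the tI-3 arrays. That of Gapdh was −0.11, −0.20 and −0.21 on the Ind-8 arrays, −0.21, −0.20 and −0.18 on the Con-3 arrays and −0.21 on both tI-3 arrays. The part of these differences in the results was not tested, beyond the values given with and without the array or with the control level as a covariate.

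Background was set at the 25th percentile of all probe sets, a log2 value of 4.30 over the 8-array means, because 36 olfactory receptor probe sets matched where 50 had been asked for. The 95th percentile of those olfactory receptor probe sets, genes of olfactory neurons, was higher at 5.12. At least 1 line mean passed 5.12 for 18 members, and passed 4.30 but not 5.12 for 13 more. The remaining 9 members were near background in all 3 lines. They were Cd27, Edar, Fasl, Lta, Tnfrsf19, Tnfsf11, Tnfsf13b, Tnfsf14 and Tnfsf4, with line means from 3.59 to 4.25. Of the 14 ligands 6 were among them. By line, 24 members exceeded 4.30 in Ind-8, 26 in Con-3 and 30 in tI-3, while 17, 15 and 17 exceeded 5.12. The 4.30 level is pooled over lines. On single arrays the 25th percentile was 4.19 to 4.25 in Ind-8, 4.23 to 4.38 in Con-3 and 4.39 and 4.43 in tI-3. The counts over 4.30 therefore do not rank the lines by members expressed.

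Against Con-3, limma called 8 members higher in Ind-8 and 1 lower (Tnfrsf13c). This was 20.0% and 2.5% of the 40 members, where 10.9% and 10.3% of all distinct profiles were called. The 8 were Eda2r, Fas, Tnfrsf10b, Tnfsf9, Tnfsf13/Tnfsfm13, Tnfrsf1a, Tnfsf12 and Ltbr. The rank product test, which ranks the differences between single arrays, called 5 of the 40 members higher and 0 lower, beside 2.22% and 1.5% of all profiles. Those 5 were Eda2r, Fas, Tnfrsf10b, Tnfsf9 and Tnfsf13/Tnfsfm13. The median difference over the members was −0.06, equal to the median over all profiles, so the rises lay in a minority of members. With the arrays quantile-normalized again the limma split was 8 higher and 0 lower, and with the hybridization-control level as a covariate 6 and 0. At an unadjusted p under 0.05 limma gave 9 higher and 4 lower. In bulk RNA, a change in every cell and a change in the share of cells that express a gene cannot be told apart.

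Against tI-3, limma called 9 members higher in Ind-8 and 14 lower, beside 15.9% and 14.8% of all profiles. All 9 lay above both background levels, as did 4 of the 14. The split was 6 and 6 after a further quantile normalization and 8 and 14 with the arrays centred on their medians. With the hybridization-control level, which is high on both tI-3 arrays, as a covariate it was 2 and 0. The fitted differences kept their sign there, the 9 running from 0.31 (Tnfsf9) to 2.28 (Eda2r) and the 14 from −0.74 (Tnfsf8) to −0.09 (Tnfsf10), so the lost calls do not show that the differences were absent. That covariate also moved the split of all profiles from 2893 higher and 2689 lower to 677 and 334, and at an unadjusted p under 0.05 the members split 9 and 14. The 2 that kept their call under the covariate were Eda2r and Tnfrsf10b, and the rank product test called the same 2 higher and 0 members lower, where it called 1.55% and 0.44% of all profiles. At a pfp under 0.01 the rank product test called Eda2r alone (pfp 0.00043, beside 0.0269 for Tnfrsf10b). With any 1 Ind-8 array left out it called 1 member. Without tI-3 replicate 2, limma called 6 higher and 3 lower, and without tI-3 replicate 1, 5 and 9; without each of the Ind-8 arrays 9 members were lower.

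For tI-3 against Con-3, limma called 9 members higher and 0 lower, beside 10.1% and 15.5% of all profiles. They were Eda2r, Fas, Tnfsf9, Tnfrsf1b, Tnfrsf4, Tnfrsf8, Tnfrsf11a, Tnfrsf18 and Tnfsf8. The shares of all profiles depended on level. With an 8-array mean between the 2 background levels, 12.1% were called higher and 3.03% lower. Under the lower level the shares were 4.16% and 0.897%, and above the higher level 12.1% and 24.3%. Members called higher were 3 of 9 between the levels, 1 of 15 under the lower and 5 of 16 above the higher. At an unadjusted p under 0.05 limma gave 13 members higher and 2 lower. A further quantile normalization gave 6 higher, and the hybridization-control covariate gave 4. Without tI-3 replicate 2 limma called 3 higher, and without Con-3 replicate 1 or 2 it called 4. The rank product test called 1 member higher, Eda2r, and 0 lower, beside 0.638% and 1.64% of all profiles. The 3 comparisons share arrays, so that their values are given side by side and are not independent of each other.

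**Figure D1:**
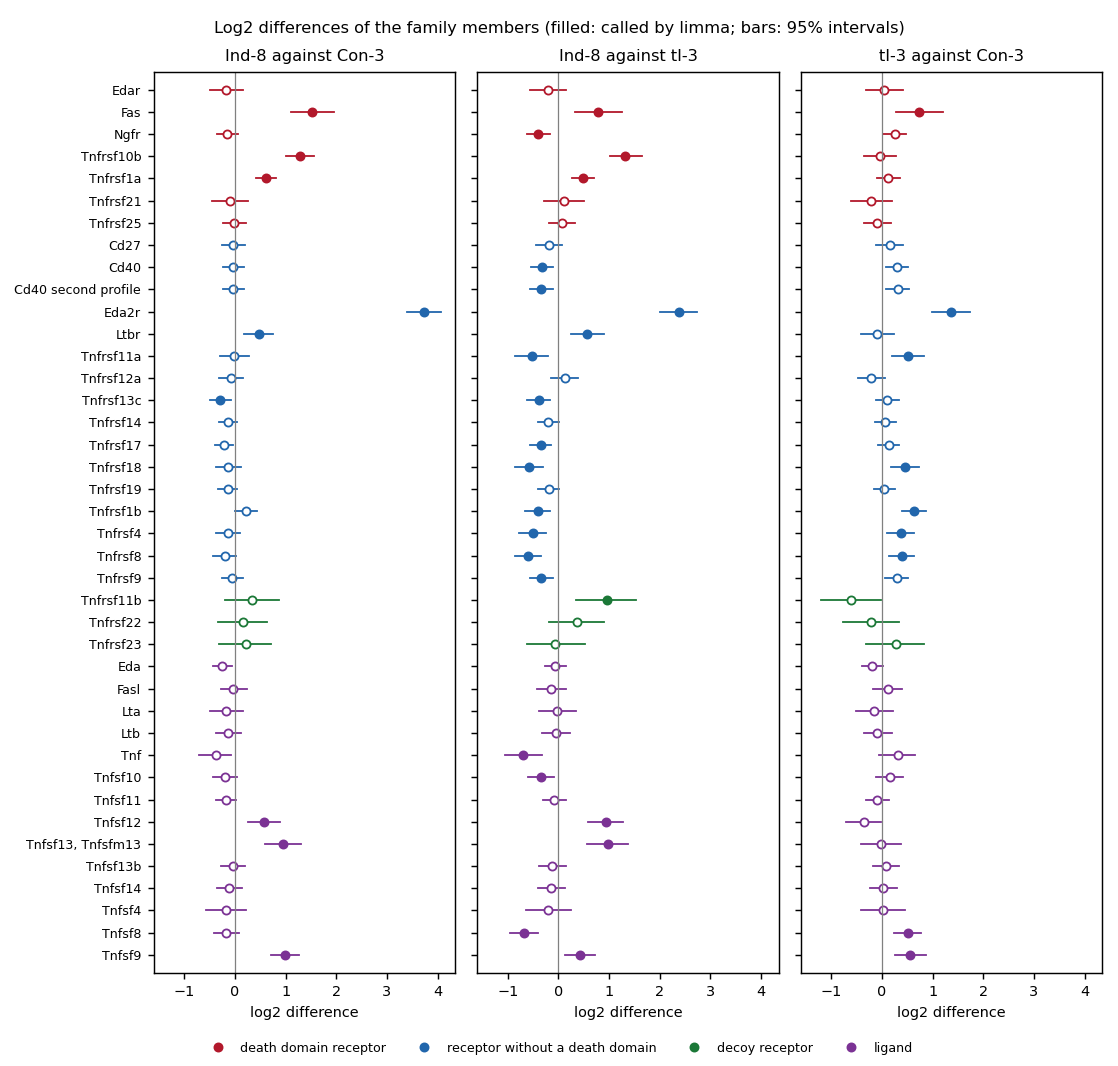
Log2 difference of each of the 40 members in the 3 comparisons, with 95% intervals from limma, colours for the 4 roles and filled circles where limma called the member. Eda2r lies furthest to the right in each panel, at 3.73, 2.37 and 1.36, and most receptors without a death domain lie left of 0 in Ind-8 against tI-3.

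Eda2r, a TRAF-binding receptor on the X chromosome, gave the greatest log2 differences of the family in the 3 comparisons, although in tI-3 against Con-3 that rank does not hold against the 5.12 level. Ind-8 replicates 1 to 3 read 7.60, 8.03 and 7.63, the Con-3 arrays 3.91, 4.08 and 4.07, and the tI-3 arrays 5.63 and 5.13. The arrays of the lines do not overlap, the Con-3 arrays lie under 4.30 and the tI-3 arrays lie between the other lines. The mean of Ind-8 exceeded that of Con-3 by 3.73 (SE 0.149, adjusted p = 2.2e-07), and, since Con-3 is below background, the ratio is at least 11.0-fold against the 4.30 level and 6.19-fold against the 5.12 level. It exceeded tI-3 by 2.37 (SE 0.167, adjusted p = 1.7e-05), or 5.19-fold, and tI-3 exceeded Con-3 by 1.36 (SE 0.167, adjusted p = 0.00034), at least 2.11-fold against 4.30 and 1.19-fold against 5.12. No limma setting lost any of these 3 calls, the highest adjusted p being 0.00443. The rank product call for tI-3 against Con-3 (pfp 0.03) was lost without any 1 of the Con-3 or tI-3 arrays.

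RefSeq promoter windows (GRCm38.p6) run from 250 bases before the transcript start to 50 after it, and were read for the symbols called by the rank product test, 4 of 6 of which have one here. They were searched on both strands for the 10-base half-site of the p53 response element, which 8.36% of all 32851 windows hold. A full element has a pair of half-sites, and pairs were not searched for. Capitals mark the first transcribed base and any match. The Eda2r window was chromosome X, 97377160 to 97377459, minus strand: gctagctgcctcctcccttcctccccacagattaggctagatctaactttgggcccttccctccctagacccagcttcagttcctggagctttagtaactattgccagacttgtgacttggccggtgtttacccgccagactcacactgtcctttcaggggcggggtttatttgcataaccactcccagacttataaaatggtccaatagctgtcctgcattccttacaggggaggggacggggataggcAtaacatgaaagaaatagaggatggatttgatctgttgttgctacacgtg. The Fas window was chromosome 19, 34290409 to 34290708, plus strand: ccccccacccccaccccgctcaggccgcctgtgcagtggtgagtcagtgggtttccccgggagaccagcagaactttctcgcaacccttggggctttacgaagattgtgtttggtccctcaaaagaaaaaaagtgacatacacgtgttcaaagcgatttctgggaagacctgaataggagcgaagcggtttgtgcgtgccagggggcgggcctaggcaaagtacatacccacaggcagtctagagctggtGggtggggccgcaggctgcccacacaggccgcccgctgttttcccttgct. The Tnfsf13 window was chromosome 11, 69685505 to 69685804, minus strand: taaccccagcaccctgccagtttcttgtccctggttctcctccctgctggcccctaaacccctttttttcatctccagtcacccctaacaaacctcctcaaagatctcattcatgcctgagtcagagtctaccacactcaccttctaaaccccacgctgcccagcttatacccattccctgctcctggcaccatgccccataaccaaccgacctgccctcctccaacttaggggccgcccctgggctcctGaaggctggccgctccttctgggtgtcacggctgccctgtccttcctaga. The Tnfsfm13 window was chromosome 11, 69696049 to 69696348, minus strand: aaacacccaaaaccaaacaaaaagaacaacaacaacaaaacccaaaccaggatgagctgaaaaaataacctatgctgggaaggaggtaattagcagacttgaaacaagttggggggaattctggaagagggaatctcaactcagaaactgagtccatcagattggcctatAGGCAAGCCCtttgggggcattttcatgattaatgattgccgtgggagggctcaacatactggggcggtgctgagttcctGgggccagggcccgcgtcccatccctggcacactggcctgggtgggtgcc. The windows of Eda2r, Fas and Tnfsf13 hold no match, and that of Tnfsfm13 holds 1, AGGCAAGCCC, whose first base lies at −80 from the start. Among the 33 family symbols with a window 4 hold a match, the others being Fasl, Tnfrsf25 and Tnfsf13b, whose line means were under 5.12. Some symbols have more than 1 window, and Tnfrsf25 has 1 with and 1 without a match. The 8.36% counts windows, so it is not the share of symbols. A match describes the sequence alone; binding was not measured.

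**Figure D2:**
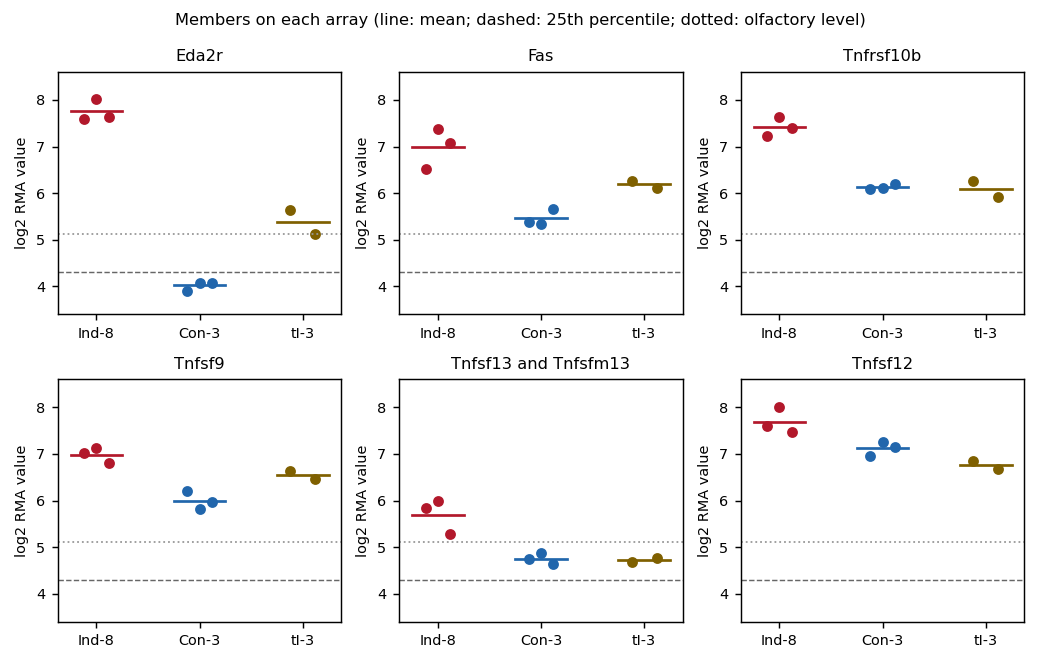
Log2 RMA value of 6 members on each array, by line, with line means as bars and the 2 background levels as dashed (4.30) and dotted (5.12) lines. Every Ind-8 array lies above every Con-3 and tI-3 array for all 6, while tI-3 lies above Con-3 for Eda2r, Fas and Tnfsf9 and below it for Tnfsf12.

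Among death domain receptors, Fas, Tnfrsf10b and Tnfrsf1a rose in Ind-8 against both other lines. Fas, the receptor of Fas ligand, read 6.51, 7.38 and 7.07 on the Ind-8 arrays, 5.38, 5.34 and 5.65 on the Con-3 arrays and 6.27 and 6.11 on the tI-3 arrays. The lines do not overlap, although Ind-8 replicate 1 comes close to tI-3. Fas was 2.89-fold higher in Ind-8 than in Con-3 (log2 difference 1.53, SE 0.188, adjusted p = 0.00042). Against tI-3 the difference was 0.79 (SE 0.21, adjusted p = 0.0182), and that of tI-3 from Con-3 was 0.74 (SE 0.21, adjusted p = 0.0269). The call against tI-3 was lost without tI-3 replicate 1 (adjusted p = 0.0535) or tI-3 replicate 2 (0.124), and ran over 0.00209 to 0.165 in all limma settings. That of tI-3 from Con-3 was lost without Con-3 replicate 1 (adjusted p = 0.0657), Con-3 replicate 2 (0.0801), tI-3 replicate 1 (0.138) or tI-3 replicate 2 (0.0884), with a range of 0.00426 to 0.138.

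Tnfrsf10b, the mouse TRAIL receptor that carries a death domain, read 7.23, 7.63 and 7.39 in Ind-8, 6.09, 6.11 and 6.20 in Con-3 and 6.27 and 5.91 in tI-3. Only the Ind-8 arrays stand apart, and Con-3 and tI-3 overlap. The rise was 1.28 against Con-3 (SE 0.125, adjusted p = 0.00011) and 1.32 against tI-3 (SE 0.14, adjusted p = 0.00018), whereas tI-3 differed from Con-3 by −0.04 (95% interval −0.35 to 0.27). All limma settings kept both calls (adjusted p 8e-05 to 0.00135 and 0.00014 to 0.0158). The tI-3 arrays thus lay with the Con-3 arrays for this receptor.

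Tnfrsf1a, the main TNF receptor of fibroblasts, averaged 10.17 ± 0.054 in Ind-8, 9.56 ± 0.11 in Con-3 and 9.69 ± 0.0073 in tI-3, a rise of 0.61 and 0.48 (adjusted p = 0.00107 and 0.00582). No array decided either call, although the second was lost with the hybridization-control covariate (range 0.00291 to 0.0956). The other death domain receptors were not called against Con-3. Tnfrsf21 (DR6) averaged 7.48 ± 0.34, 7.58 ± 0.19 and 7.37 ± 0.012 in Ind-8, Con-3 and tI-3, and Tnfrsf25 averaged 4.79 ± 0.11, 4.81 ± 0.15 and 4.71 ± 0.045. Ngfr, the p75 neurotrophin receptor, averaged 4.03 ± 0.06, 4.17 ± 0.11 and 4.42 ± 0.11, and passed 4.30 in tI-3 alone. It was called lower in Ind-8 than in tI-3 (adjusted p = 0.0177), but not without Ind-8 replicate 2 (adjusted p = 0.0522) or tI-3 replicate 2 (0.142), nor after a further quantile normalization (−0.21 in place of −0.40, adjusted p = 0.134) or with the covariate (−0.22, adjusted p = 0.434).

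Among ligands, Tnfsf9, Tnfsf13/Tnfsfm13 and Tnfsf12 rose in Ind-8 against both other lines. Tnfsf9, the ligand of 4-1BB (Tnfrsf9), read 7.01, 7.12 and 6.80 in Ind-8, 6.20, 5.82 and 5.96 in Con-3 and 6.63 and 6.47 in tI-3, without overlap between the lines. It was 1.98-fold higher in Ind-8 than in Con-3 (log2 difference 0.99, SE 0.122, adjusted p = 0.00044), a call that all limma settings kept. The tI-3 arrays again lay between, at 0.43 below Ind-8 (adjusted p = 0.0366) and 0.56 above Con-3 (adjusted p = 0.0133). Against tI-3 the call was lost without Ind-8 replicate 1 (adjusted p = 0.0862), Ind-8 replicate 2 (0.105), tI-3 replicate 1 (0.0701) or tI-3 replicate 2 (0.212), with a range of 0.0203 to 0.439 over limma settings. The rise in tI-3 was lost without tI-3 replicate 1 (adjusted p = 0.0931), over a range of 0.00674 to 0.0931.

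The profile of Tnfsf13, the ligand APRIL, and the read-through Tnfsfm13 read 5.83, 5.99 and 5.28 in Ind-8, 4.74, 4.87 and 4.64 in Con-3 and 4.69 and 4.77 in tI-3. Con-3 and tI-3 overlap at a level under 5.12, and all Ind-8 arrays are above it. All lines pass 4.30, and the difference was 0.95 from Con-3 (SE 0.161, adjusted p = 0.0024) and 0.97 from tI-3 (SE 0.18, adjusted p = 0.00371), and against the 5.12 level Ind-8 was at least 1.49-fold higher than either. The call against tI-3 was lost with the covariate alone (range 0.00036 to 0.114). The neighbouring Tnfsf12 on chromosome 11, which encodes TWEAK, read 7.60, 8.0 and 7.47 in Ind-8, 6.96, 7.25 and 7.16 in Con-3 and 6.84 and 6.68 in tI-3, with no overlap between the lines. It rose by 0.57 against Con-3 (adjusted p = 0.015) and by 0.93 against tI-3 (adjusted p = 0.00217). The first was lost without Con-3 replicate 1 (adjusted p = 0.0505), and both were lost with the covariate, over ranges of 0.0103 to 0.0629 and 0.00171 to 0.0653.

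The ligands Tnf, Tnfsf8 and Tnfsf10 fell in Ind-8 against tI-3. Tnf read 5.39, 5.60 and 5.92 in Ind-8, 5.85, 5.97 and 6.25 in Con-3 and 6.29 and 6.37 in tI-3, a difference of −0.69 from tI-3 (SE 0.161, adjusted p = 0.00995). Ind-8 and Con-3 overlap, and their difference of −0.38 was not called (adjusted p = 0.085). Tnfsf8, the CD30 ligand, read 4.13, 4.0 and 4.03 in Ind-8, 4.21, 4.37 and 4.08 in Con-3 and 4.59 and 4.87 in tI-3, all under 5.12 and with both tI-3 arrays above the other 6. The means of Ind-8 and Con-3 lie under 4.30, and limma called tI-3 higher than either (adjusted p = 0.00308 and 0.0112). The tI-3 mean stood 1.35-fold over that pooled level. The 25th percentile of the tI-3 arrays themselves was higher, at 4.39 and 4.43, so this fold is not a lower limit. No fold holds against 5.12. A further quantile normalization lost the call of Tnfsf8 in tI-3 against Con-3 (0.39, adjusted p = 0.0648). The Tnf call was lost without tI-3 replicate 2 (adjusted p = 0.0757), over a range of 0.00071 to 0.332, and the rise of Tnfsf8 in tI-3 without tI-3 replicate 2 (adjusted p = 0.123), over a range of 0.0109 to 0.123. Eda, the ligand of Eda2r in its A2 form, averaged 5.98 ± 0.084, 6.23 ± 0.021 and 6.04 ± 0.074 and was called in no comparison. Ltb averaged 4.21 ± 0.11, 4.34 ± 0.18 and 4.26 ± 0.12. Tnfsf10 (TRAIL) averaged 4.12 ± 0.068, 4.32 ± 0.13 and 4.47 ± 0.2, and its fall against tI-3 (adjusted p = 0.0469) was lost without Ind-8 replicate 1 (adjusted p = 0.0858), Ind-8 replicate 2 (0.119), Ind-8 replicate 3 (0.0649), Con-3 replicate 1 (0.0533), Con-3 replicate 2 (0.0601) or tI-3 replicate 2 (0.335). The last of these moved the difference from −0.35 to −0.21, and a further quantile normalization moved it to −0.16 (adjusted p = 0.292).

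Of the other receptors, Ltbr, which binds lymphotoxin, averaged 9.77 ± 0.25 in Ind-8, 9.30 ± 0.085 in Con-3 and 9.21 ± 0.17 in tI-3. It rose by 0.47 and 0.56 (adjusted p = 0.0273 and 0.0162). The call against Con-3 was lost without Ind-8 replicate 1 (adjusted p = 0.0883), Ind-8 replicate 3 (0.0603), Con-3 replicate 1 (0.072) or Con-3 replicate 3 (0.0761), over a range of 0.0134 to 0.0883. That against tI-3 was lost without tI-3 replicate 1 (adjusted p = 0.112), over a range of 0.00852 to 0.132. Tnfrsf1b, the other TNF receptor, read 7.46, 7.33 and 7.22 in Ind-8, 7.02, 7.22 and 7.11 in Con-3 and 7.70 and 7.79 in tI-3. Both tI-3 arrays lay above the rest, while Ind-8 and Con-3 overlap. The level in tI-3 was 0.63 over Con-3 (adjusted p = 0.0022, kept in every limma setting). Ind-8 differed from tI-3 by −0.41 (adjusted p = 0.0187). That fall was lost without Ind-8 replicate 3 (adjusted p = 0.0534), tI-3 replicate 1 (0.0515) or tI-3 replicate 2 (0.121), over a range of 0.00391 to 0.255.

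The decoy receptor Tnfrsf11b, osteoprotegerin, read 8.0, 7.75 and 7.37 in Ind-8, 7.95, 6.87 and 7.28 in Con-3 and 6.78 and 6.74 in tI-3. Ind-8 and Con-3 overlap, and both tI-3 arrays lay below them. Ind-8 exceeded tI-3 by 0.95 (SE 0.268, adjusted p = 0.0238), a call lost without Ind-8 replicate 1 (adjusted p = 0.0734), Ind-8 replicate 2 (0.0612), tI-3 replicate 1 (0.0853) or tI-3 replicate 2 (0.121), over a range of 0.00534 to 0.329. The decoys of TRAIL, Tnfrsf22 and Tnfrsf23, both on chromosome 7, were called in no comparison. Tnfrsf22 averaged 5.56 ± 0.24, 5.41 ± 0.51 and 5.20 ± 0.11, and Tnfrsf23 averaged 7.50 ± 0.33, 7.29 ± 0.51 and 7.56 ± 0.00017. Tnfrsf12a, the TWEAK receptor, averaged 12.37 ± 0.18, 12.45 ± 0.054 and 12.25 ± 0.13, with intervals of the difference from Con-3 of −0.31 to 0.16 for Ind-8 and −0.47 to 0.06 for tI-3.

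Ligand and receptor were both above 5.12 in at least 1 line for 4 of the pairs read: Eda with Eda2r, Tnfsf12 with Tnfrsf12a, and Tnf with Tnfrsf1a and with Tnfrsf1b. The Eda profile does not show whether the A2 form is made. For Tnfrsf12a, its ligand rose in Ind-8 while the receptor was not called, and for Eda2r the reverse held. For Fas and Tnfrsf10b, the ligands Fasl and Tnfsf10 gave no line mean over 5.12, and Fasl none over 4.30. For Tnfsf9, the receptor Tnfrsf9 averaged 4.03 ± 0.047, 4.08 ± 0.027 and 4.37 ± 0.18.

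Of the 16 receptors without a death domain, counted by profile, 10 were called lower in Ind-8 than in tI-3, where limma called 14.8% of all profiles lower and 27.6% of those with an 8-array mean between 4.30 and 5.12. They comprised Tnfrsf1b above and 9 dimmer profiles. Tnfrsf18 (GITR) read 4.59, 4.80 and 4.84 in Ind-8, 4.75, 4.82 and 5.05 in Con-3 and 5.41 and 5.25 in tI-3 (log2 difference from tI-3 −0.59, adjusted p = 0.00663). Tnfrsf8 (CD30) read 4.43, 4.36 and 4.40, then 4.54, 4.63 and 4.63, and 4.82 and 5.17 in tI-3 (−0.60, adjusted p = 0.00411). Both tI-3 arrays lay above the other 6 for each of these receptors. The Tnfrsf18 call was lost without tI-3 replicate 1 (adjusted p = 0.0501), over a range of 0.00383 to 0.208, whereas no array decided that of Tnfrsf8 (range 0.00365 to 0.161). Tnfrsf11a (RANK) read 4.33, 4.43 and 4.51, then 4.32, 4.41 and 4.59, and 4.72 and 5.19 in tI-3 (−0.53, adjusted p = 0.0206). Tnfrsf13c (BAFF receptor) read 4.62, 4.56 and 4.41, then 4.84, 4.85 and 4.76, and 4.99 and 4.85 in tI-3 (−0.39, adjusted p = 0.0174). For Tnfrsf11a both tI-3 arrays again lay above the others, whereas for Tnfrsf13c they lay above Ind-8, and 1 of them equals the highest Con-3 array to 2 decimals. The Tnfrsf11a call was lost without Ind-8 replicate 1 (adjusted p = 0.0602) or tI-3 replicate 2 (0.207), over a range of 0.00667 to 0.552, and that of Tnfrsf13c without Ind-8 replicate 3 (adjusted p = 0.0512), tI-3 replicate 1 (0.104) or tI-3 replicate 2 (0.0507), over a range of 0.0152 to 0.25. Quantile normalization lost both calls too, with −0.33 for Tnfrsf11a (adjusted p = 0.0873) and −0.20 for Tnfrsf13c (adjusted p = 0.25), and without tI-3 replicate 2 the Tnfrsf11a difference was −0.29. Tnfrsf13c was also the 1 member called lower against Con-3 (−0.29, adjusted p = 0.0491), which 13 of 17 limma settings lost (range 0.0403 to 0.207), among them those without Ind-8 replicate 1 (adjusted p = 0.0525), Ind-8 replicate 2 (0.0955), Ind-8 replicate 3 (0.161), Con-3 replicate 1 (0.101), Con-3 replicate 2 (0.138), Con-3 replicate 3 (0.0739), tI-3 replicate 1 (0.0577) or tI-3 replicate 2 (0.0577).

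Line means in Ind-8, Con-3 and tI-3 were 5.84 ± 0.1, 5.98 ± 0.15 and 6.35 ± 0.14 for Tnfrsf4 (OX40). For the Cd40 profiles they were 4.61 ± 0.099, 4.64 ± 0.04 and 4.94 ± 0.094, and 4.59 ± 0.1, 4.62 ± 0.034 and 4.93 ± 0.13. Tnfrsf17 (BCMA) averaged 4.17 ± 0.077, 4.38 ± 0.024 and 4.52 ± 0.033. The fall against tI-3 was called for each of these and for Tnfrsf9. A further quantile normalization moved it from −0.33 to −0.14 for Cd40 (adjusted p = 0.314), from −0.34 to −0.14 for the second Cd40 profile (0.308), from −0.35 to −0.15 for Tnfrsf17 (0.333) and from −0.34 to −0.15 for Tnfrsf9 (0.269), and lost these calls. By array, the call was lost for Tnfrsf4 without tI-3 replicate 2 (adjusted p = 0.101), for Cd40 without Ind-8 replicate 1 (adjusted p = 0.0645), Ind-8 replicate 2 (0.0865), tI-3 replicate 1 (0.0523) or tI-3 replicate 2 (0.193) and for the second Cd40 profile without Ind-8 replicate 1 (adjusted p = 0.0536), Ind-8 replicate 2 (0.0875) or tI-3 replicate 2 (0.216). For Tnfrsf17 it was lost without Ind-8 replicate 3 (adjusted p = 0.0527), tI-3 replicate 1 (0.0804) or tI-3 replicate 2 (0.0723), and for Tnfrsf9 without Ind-8 replicate 1 (adjusted p = 0.0583), Ind-8 replicate 2 (0.0823), Ind-8 replicate 3 (0.0552) or tI-3 replicate 2 (0.256, difference −0.21). Tnfrsf14 averaged 4.11 ± 0.049, 4.25 ± 0.074 and 4.31 ± 0.023 and was not called. Against Con-3, tI-3 was higher in Tnfrsf11a (0.51), Tnfrsf18 (0.46), Tnfrsf8 (0.39) and Tnfrsf4 (0.37), with adjusted p from 0.0213 to 0.0427. A further quantile normalization lost the calls of Tnfrsf11a (0.39, adjusted p = 0.0509) and Tnfrsf8 (0.27, adjusted p = 0.102), and kept those of Tnfrsf18 and Tnfrsf4. The Tnfrsf11a call was lost without Con-3 replicate 1 (adjusted p = 0.0711), Con-3 replicate 2 (0.07) or tI-3 replicate 2 (0.259, difference 0.27). That of Tnfrsf18 was lost without Con-3 replicate 1 (adjusted p = 0.0611), Con-3 replicate 2 (0.0662), tI-3 replicate 1 (0.137) or tI-3 replicate 2 (0.0532). That of Tnfrsf8 was lost without Con-3 replicate 1 (adjusted p = 0.0698), Con-3 replicate 2 (0.0622) or tI-3 replicate 2 (0.265, difference 0.22). That of Tnfrsf4 was lost without Ind-8 replicate 1 (adjusted p = 0.0555), Ind-8 replicate 3 (0.0507), Con-3 replicate 1 (0.091), Con-3 replicate 2 (0.135), tI-3 replicate 1 (0.0565) or tI-3 replicate 2 (0.275).

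The dim end of the arrays also differed between lines. The 25th percentile of all probe sets was 4.19, 4.20 and 4.25 on the Ind-8 arrays, 4.23, 4.27 and 4.38 on the Con-3 arrays and 4.39 and 4.43 on the tI-3 arrays. The median of the 22 members not above both background levels was 4.11, 4.03 and 4.07, then 4.22, 4.19 and 4.29, and 4.33 and 4.42. Of the 2505 profiles of all genes with an 8-array mean between 4.30 and 5.12, 27.6% were called lower in Ind-8 than in tI-3 and 4.11% higher, with a median difference of −0.25. In that range 7 of 9 family members were called lower, with a median of −0.35. Of the 4570 profiles under 4.30, 10.9% were called lower, beside 4 of 15 members. After a further quantile normalization the median difference of the profiles under 4.30 moved from −0.14 to −0.01, and 6 of the 14 lower calls among the members were kept. The calls it lost were those of Tnfrsf11a, Tnfrsf13c, Tnfrsf17, Tnfrsf9, Ngfr, Tnfsf10 and both Cd40 profiles. The Ind-8 means of Ngfr, Tnfrsf17, Tnfrsf9 and Tnfsf10 lie under 4.30. Over that pooled level tI-3 stood 1.09-fold, 1.16-fold, 1.05-fold and 1.13-fold. The tI-3 means were 4.42, 4.52, 4.37 and 4.47, near the 25th percentiles of 4.39 and 4.43 on the tI-3 arrays. These folds are therefore not lower limits, and the fitted differences of these members are no measure of size. With the hybridization-control covariate 0 of the 14 calls were kept, the fitted difference being larger in size for Tnfsf8, Tnfrsf13c and Tnfrsf17 (−0.74, −0.49 and −0.39) and smaller for the others, down to −0.09 for Tnfsf10.

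Markers of other cell types were read beside these. Of 9 leukocyte marker profiles 5 were called lower in Ind-8 than in tI-3 and 0 higher, both Cd8a profiles being among the 5. Of 5 macrophage profiles the calls were 2 and 0, of 5 endothelial profiles 1 and 0 and of 6 epithelial profiles 0 and 0. Of all profiles 14.8% were called lower, with 27.6% between 4.30 and 5.12 and 10.9% under 4.30. In tI-3 against Con-3, limma called 10.1% of all profiles higher and 15.5% lower. Cd3e (leukocyte, 0.42), Csf1r (macrophage, 0.33) and Kdr (endothelial, 0.44) were called higher there, and 0 profiles of these lists lower. The hybridization-control covariate lost these calls, at 0.34, 0.27 and 0.36. The summed log2 value of the leukocyte profiles was 38.3, 39.0 and 38.7 on the Ind-8 arrays, 39.6, 39.5 and 40.1 on the Con-3 arrays and 41.2 and 41.1 on the tI-3 arrays. Ptprc (CD45) lay under 4.30 in each line, at 3.50 ± 0.2, 3.66 ± 0.099 and 3.61 ± 0.0022. Cd3e averaged 5.34 ± 0.054, 5.35 ± 0.057 and 5.77 ± 0.16, each over 5.12. The part of the dim end or of other cells in the calls of the dim receptors was not tested.

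**Figure D3:**
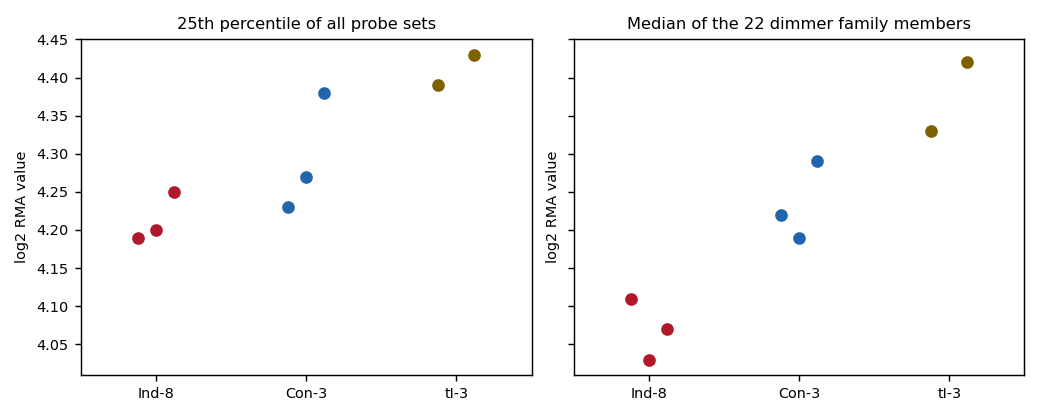
Log2 value of the 25th percentile of all probe sets on each array (left) and of the median of the 22 dimmer family members (right), by line, 1 point per array. In both panels the tI-3 arrays are highest, at 4.39 and 4.43 on the left and 4.33 and 4.42 on the right, and the Ind-8 arrays are lowest on the right.

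Of 55 profiles of genes that act downstream of the receptors, process their ligands or encode related ligands, limma called 15 higher and 6 lower in Ind-8 than in Con-3, 10 and 6 against tI-3, and 10 and 10 for tI-3 against Con-3. These were 27.3% and 10.9%, 18.2% and 10.9%, and 18.2% and 18.2% of the 55, where all profiles gave 10.9% and 10.3%, 15.9% and 14.8%, and 10.1% and 15.5%. Profiles of all genes with an 8-array mean above 5.12 gave 16.4% and 15.2%, 24.8% and 13.5%, and 12.1% and 24.3%. The rank product test called 1 higher and 1 lower in the first comparison and 0 in the others. The median differences were 0.01, 0.06 and −0.03. In the death arm, 8 of 13 profiles rose in Ind-8 against Con-3 and 1 fell, with a median of 0.36, and 4 rose and 1 fell against tI-3. Of the 35 profiles of the TRAF and NF-kB arm 6 rose and 5 fell against Con-3. With the hybridization-control covariate the 55 gave 6 higher and 3 lower against Con-3, and 2 and 1 against tI-3, where a further quantile normalization gave 8 and 12.

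Ripk3, the kinase of necroptosis, gave the greatest rise against Con-3. It read 9.88, 9.90 and 9.87 in Ind-8, 9.02, 8.94 and 9.02 in Con-3 and 9.70 and 9.64 in tI-3, a difference of 0.89 from Con-3 (SE 0.0796, adjusted p = 7.4e-05) and 0.68 between tI-3 and Con-3 (adjusted p = 0.00051). All limma settings kept both. Mlkl, its substrate, rose by 0.73 against tI-3 (adjusted p = 0.00347, range 0.00173 to 0.174). Cflar, which encodes the caspase-8 inhibitor c-FLIP, rose by 0.81 against Con-3 (adjusted p = 0.017). That call was lost without Ind-8 replicate 2 (adjusted p = 0.0672) or Con-3 replicate 3 (0.0632), over a range of 0.0102 to 0.099. The adaptor Tradd rose by 0.86 against tI-3 (adjusted p = 0.00032).

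Tnfaip3, which encodes A20, an inhibitor of NF-kB signalling, read 7.72, 7.45 and 7.67 in Ind-8, 8.71, 8.26 and 8.34 in Con-3 and 7.76 and 7.63 in tI-3. It fell by 0.82 in Ind-8 against Con-3 (SE 0.13, adjusted p = 0.00159) and by 0.74 in tI-3 (adjusted p = 0.00427), and was the pathway gene that the rank product test called lower. Nfkb1 fell by 0.45 against Con-3 (adjusted p = 0.0354), a call lost without Ind-8 replicate 1 (adjusted p = 0.118), Ind-8 replicate 2 (0.0768), Con-3 replicate 2 (0.112) or Con-3 replicate 3 (0.126), over a range of 0.00656 to 0.208. Rela and Nfkbia fell by 0.61 and 0.60 against tI-3 (adjusted p = 0.00288 and 0.00849). The Rela call was lost with the hybridization-control covariate (−0.62, adjusted p = 0.0681). That of Nfkbia was lost without tI-3 replicate 1, where the difference was −0.46. Traf5 rose by 0.67 against tI-3 (adjusted p = 0.0175), which became 0.29 and was lost without tI-3 replicate 1 (adjusted p = 0.102) and became 1.05 without tI-3 replicate 2 (adjusted p = 0.00146), over a range of 0.00146 to 0.114. A profile of Ikbkg, the IKK scaffold NEMO, rose by 0.59 in Ind-8 (adjusted p = 0.0134) and by 0.94 in tI-3 (adjusted p = 0.00198) against Con-3, the former call being lost without Con-3 replicate 2 (adjusted p = 0.0552), over a range of 0.0115 to 0.0713. Against Con-3 in tI-3, Rbck1 rose by 0.90 (adjusted p = 0.00052), and Tab2 and Otulin, which encode a TAK1 adaptor and a linear-ubiquitin deubiquitinase, fell by 0.80 and 0.77 (adjusted p = 0.00024 and 0.00048).

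**Figure D4:**
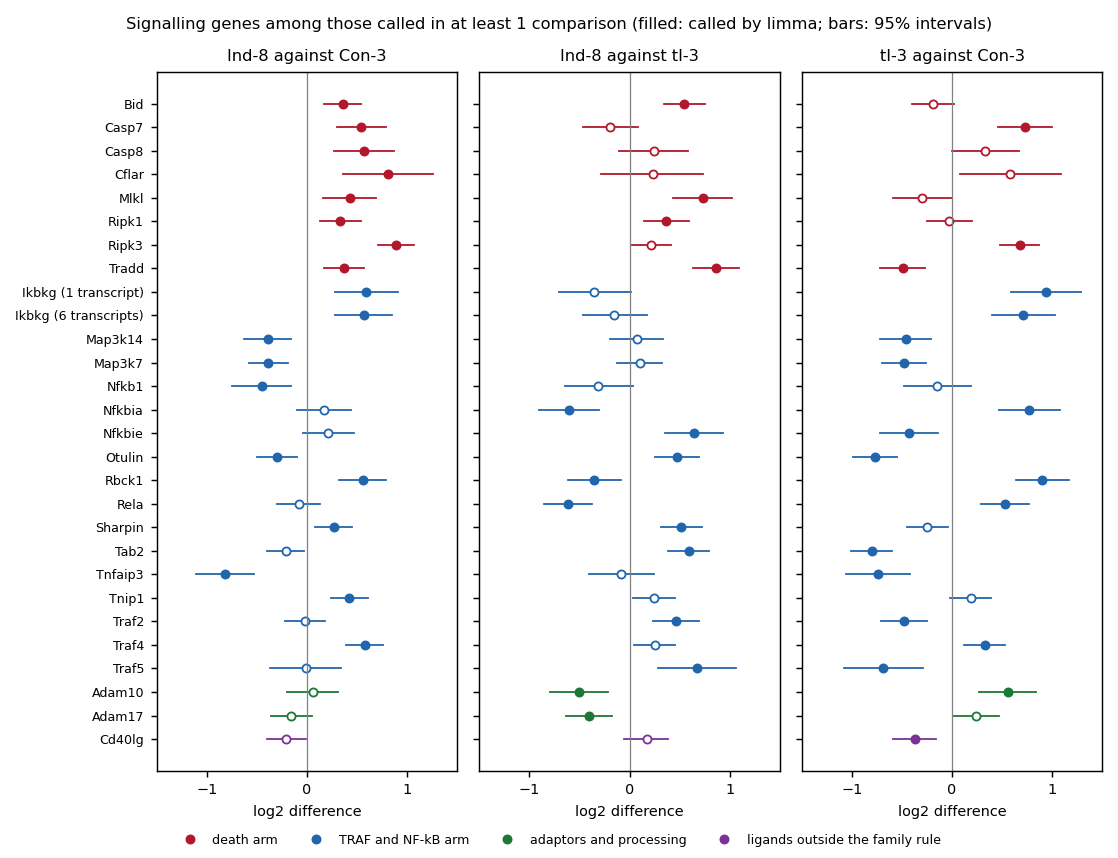
Log2 difference of 28 pathway profiles called in at least 1 comparison, with 95% intervals from limma, colours for the list they belong to and filled circles where limma called them. Ripk3 lies right of 0 and Tnfaip3 lies left of 0 against Con-3 in Ind-8 and in tI-3.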

How the data were processed

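RNA from cultures of 3 mouse fibroblast lines was hybridized to 1 array per culture (3 Ind-8, 3 Con-3, 2 tI-3). The authors made the deposited values, which are log2 signals, by RMA after regrouping the probes by transcript. They were used without further normalization, and 64 control probe sets were set aside. A RefSeq table (GRCm38.p6), used for names, matched 18290 of the other 22523 (81.2%). Precision is limited by the small number of arrays. The labels describe the replicates as separate, and p-values measure the spread between these arrays.

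limma 3.58.1 (R 4.3.3) was fitted to the 3 line means on all 8 arrays. P-values were adjusted by the Benjamini-Hochberg method over the 22523 probe sets, and a member was called at an adjusted p under 0.05. The rank product test, which the study's methods name, was re-implemented in Python 3.11.15 with numpy 2.4.6 and pandas 2.3.3 (100 permutations, pfp under 0.05 per direction). Intervals used scipy 1.17.1, and figures matplotlib 3.10.9. Both tests were tested on simulated data.

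The members and the gene lists were chosen with earlier results of these data known. Members above background are named with their line means. Values on every array are given for Eda2r, Fas, members called by the rank product test, and in each comparison the 5 called members that rose most and the 5 that fell most. Pathway genes are named if the rank product test called them or if they were among the 3 called ones that rose or fell most; some of these are not reported here. Ngfrap1, Cd79a and Cd68 matched no probe set. The olfactory 95th percentile was added as an alternative after the data were seen.

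Alternatives were the rank product test in place of limma, the replicate number as a block, the 2 compared lines only, a trend in the prior, a filter at the 25th percentile, identical probe sets kept once, quantile normalization, centring, control probe sets kept, a minimum log2 difference of 1, the hybridization-control covariate, a stricter pfp (0.01), another seed, other background levels, and each array left out in turn. The 17 limma settings are the refits of limma among these. They do not include the minimum log2 difference, under which no difference smaller than 1 is called.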

Additional observations from a re-analysis of the deposited data

How the results depend on the processing

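Of the 41 member calls over the 3 comparisons, 10 were kept in all 17 limma settings, 31 were lost in at least 1 and 0 were reversed. When a tI-3 array is left out, the lone tI-3 array is assumed to vary like the other lines. The causes of the changes below were not tested.

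In Ind-8 against Con-3, the 8 members called higher became 3 with a minimum log2 difference of 1 and 5 by the rank product test, and 7 to 8 with 1 array left out. The 1 called lower became 2 with the replicate block and 2 with the arrays centred, and 0 with the 2 compared lines only, 0 with a trend in the prior, 0 with identical probe sets kept once, 0 after quantile normalization, 0 with the hybridization-control covariate, 0 with the minimum difference, 0 by the rank product test, and 0 to 1 with 1 array left out.

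In Ind-8 against tI-3, the 9 called higher became 2 with the covariate, 2 with the minimum difference, 2 by the rank product test and 5 (without tI-3 replicate 1) to 9 with 1 array left out. The 14 called lower became 6 after quantile normalization, 0 with the covariate, 0 with the minimum difference, 0 by the rank product test and 3 (without tI-3 replicate 2) to 14 with 1 array left out.

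In tI-3 against Con-3, the 9 called higher became 4 with the covariate, 1 with the minimum difference, 1 by the rank product test and 3 (without tI-3 replicate 2) to 9 with 1 array left out. The 0 called lower became 1 with the replicate block, and 0 to 1 (without Con-3 replicate 2) with 1 array left out.

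Of the pathway genes in Ind-8 against Con-3, the 15 called higher became 6 with the covariate, 0 with the minimum difference and 1 by the rank product test. The 6 called lower became 3, 0 and 1 in that order, and 3 to 6 with 1 array left out. In Ind-8 against tI-3, the 10 called higher became 2 with the covariate, 0 with the minimum difference and 0 by the rank product test, and the 6 called lower became 12 after quantile normalization, 1 with the covariate, 0 with the minimum difference, 0 by the rank product test and 2 to 7 with 1 array left out. In tI-3 against Con-3, the 10 called higher became 0 with the minimum difference and 0 by the rank product test, and so did the 10 called lower, which became 5 to 10 with 1 array left out.

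The rank product calls among members changed from 5 to 3 in Ind-8 against Con-3 at a pfp under 0.01, and to 2 to 4 with 1 array left out. They changed from 2 to 1 in Ind-8 against tI-3 at that pfp, and to 1 with any 1 of its arrays left out. The 1 call in tI-3 against Con-3 became 0 at that pfp, 0 after quantile normalization and 0 with any 1 of its arrays left out.

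The 9 members near background became 22 with the olfactory 95th percentile and 22 with the 99th, and 9 to 10 with 1 array left out. The signal over background limits what can be said of these 22. The labels do not say that arrays of different lines with the same replicate number belong together.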
